A study of Mus musculus with 13 samples.

Results

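The genes examined were 41 lysosomal genes, encoding soluble hydrolases, the proteins that assist them and proteins of the lysosomal membrane, in brain-resident myeloid cells of PS2APP mice with and without Trem2. They were taken by symbol from a list that leaves out the cathepsins and the proton pump, and all 41 were found among the 52636 genes measured. RNA-Seq had been performed on cells sorted from the cortex and hippocampus of 7 PS2APP;Trem2wt mice, 2 of them male, and 6 PS2APP;Trem2ko mice, 1 of them male, all 14 to 15 months old. PS2APP;Trem2wt mice are labelled simply PS2APP. Mice of both genotypes carried the human presenilin 2 and amyloid precursor protein transgenes homozygously and develop β-amyloid plaques, so there was no group without amyloid among these samples. The Trem2 null allele came from a C57BL/6N background and was crossed into the C57BL/6J PS2APP line. It removes the gene from the whole animal, and breeding from heterozygotes allowed littermates to be used in both groups. The sorting gate (CD11b+ CD45+ Ly6g- Ccr2-) holds microglia together with perivascular macrophages.

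Lysosomes are acidic organelles in which phagocytosed and autophagic cargo is broken down. Each soluble hydrolase cuts a particular bond in lipids, glycosaminoglycans, glycoproteins, glycogen or proteins, and loss of a single enzyme usually leads to a storage disease of its substrate. Membrane proteins protect the limiting membrane and carry products out, and microglia, the phagocytes of the brain, express many of these genes abundantly.

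Trem2 was checked first. Its nRPKM, the size-factor-adjusted RPKM that the authors deposited, was lowest at 818, median 1016 and highest 1244 in PS2APP;Trem2wt mice, and lowest at 0.393, median 0.629 and highest 2.29 in PS2APP;Trem2ko mice, so that every library matched its label. Depth, as total counts on genes, ran from 26120961 to 114857155 in PS2APP;Trem2wt and from 41567025 to 120569609 in PS2APP;Trem2ko mice. Each of the 41 genes had at least 359 counts in each mouse. Summed nRPKM of 7 microglial markers was 7516 to 9318 in PS2APP;Trem2wt and 7560 to 8898 in PS2APP;Trem2ko mice, and all 7 were detected above an nRPKM of 1. Summed levels were 11.03 to 32.7 and 18.8 to 47.9 for 7 border macrophage markers, and 11.6 to 214 and 0.122 to 36.2 for 5 neutrophil markers. The sums of the monocyte, lymphocyte, neuron, oligodendrocyte and endothelial markers stayed at or under 38.7 in every mouse, and that of the astrocyte markers was between 54.9 and 74.5. Of all these marker genes only Cx3cr1, a microglial chemokine receptor, passed the test between genotypes (log2 fold change -0.49). The highest astrocyte marker, Slc1a3, averaged 46.9 nRPKM in PS2APP;Trem2wt and 57.8 in PS2APP;Trem2ko mice. Its log2 fold change was 0.30 (edgeR's adjusted p = 0.0533). Those of Gfap, Aqp4, Gja1 and Aldh1l1 were -0.27, 0.06, -0.11 and -0.06. These are bulk samples, in which a smaller number of cells of a type and less RNA per cell cannot be told apart.

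The promoters of many lysosomal genes hold an E-box with the letters CACGTG, read alike on both strands, which MiT/TFE transcription factors such as TFEB are known to bind, often within the longer palindrome TCACGTGA that contains it. RefSeq promoter windows (GRCm38.p6, 250 bases before to 50 bases after the transcription start) were found for 37 of the 41 genes. The entries for Asah1, Galns, Aga and Cln8 were not found. The E-box letters stood in 10 of the 37 genes (27.0%), against 8.09% of all 27025 genes with a window. The longer palindrome stood in 3 of the 37 (8.11%), Gla, Cln3 and Dpp7, against 1.12% of all genes. A gene with several windows was counted if any of them held the match. The windows with matches in Cln3 (chr7:126583187-126583486) and Lgmn lie inside the GENCODE genes, downstream of their annotated starts. GENCODE places the start of Cln3 at 126585817 on the minus strand. Lamp1 held the most copies, 4 within 61 bases of its start. The windows below are shown for the gene with the most copies, for the 3 genes with the longer palindrome, for Sgsh, whose start lies next to that of a gene that differed between genotypes, and for Gusb, which has no match and is the gene of the 41 that passed the test. All are upstream of the RefSeq start, 5′ to 3′ on the gene's strand, with the matches in capitals.
Lamp1 (chr8:13159081-13159160, plus strand): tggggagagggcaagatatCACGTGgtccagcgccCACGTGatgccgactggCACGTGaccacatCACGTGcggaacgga
Gla (chrX:134601186-134601245, minus strand): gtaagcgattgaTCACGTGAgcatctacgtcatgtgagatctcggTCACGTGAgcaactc
Cln3 (chr7:126583337-126583396, minus strand): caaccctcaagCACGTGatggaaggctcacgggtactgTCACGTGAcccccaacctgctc
Dpp7 (chr2:25356373-25356432, minus strand): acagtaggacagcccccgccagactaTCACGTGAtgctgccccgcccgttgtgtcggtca
Sgsh (chr11:119355511-119355570, minus strand): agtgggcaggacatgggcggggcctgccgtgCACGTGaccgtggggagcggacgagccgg
Gusb (chr5:130003050-130003149, minus strand): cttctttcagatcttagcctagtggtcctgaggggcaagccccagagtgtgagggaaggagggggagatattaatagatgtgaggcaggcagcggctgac

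**Figure D1:**
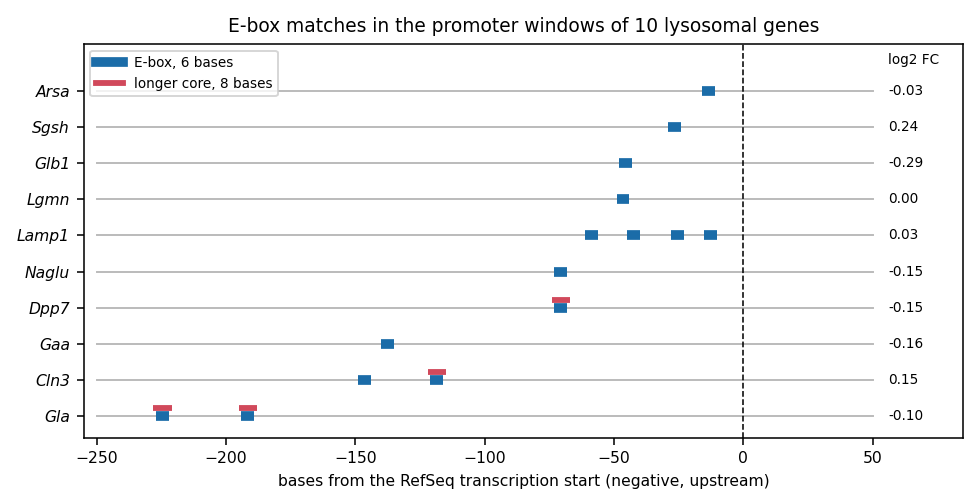
Position of each E-box match (blue) and longer palindrome match (red) in the promoter windows of the 10 genes that hold one, in bases from the RefSeq transcription start (dashed line), with each gene's log2 fold change between genotypes at the right. Lamp1 has 4 matches, the farthest 61 bases upstream, and the matches of Gla lie farthest from the start.

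The 41 genes differed widely in level and little between genotypes. Mean nRPKM, which is scaled to gene length and can be compared between genes, ran from 3.10 for Sgsh to 1697 for Lgmn, a 548-fold range. It was above 100 for 17 genes and under 10 for 4. Together the 41 genes took 3.77% ± 0.27 (SD, n = 7) of the counts in PS2APP;Trem2wt mice, with single mice from 3.40% to 4.26%, and 3.70% ± 0.12 (SD, n = 6) in PS2APP;Trem2ko mice, from 3.56% to 3.87%. Legumain (Lgmn), the membrane protein Laptm5 and Cd68 had the highest levels, and Gla and Sgsh the lowest.

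**Figure D2:**
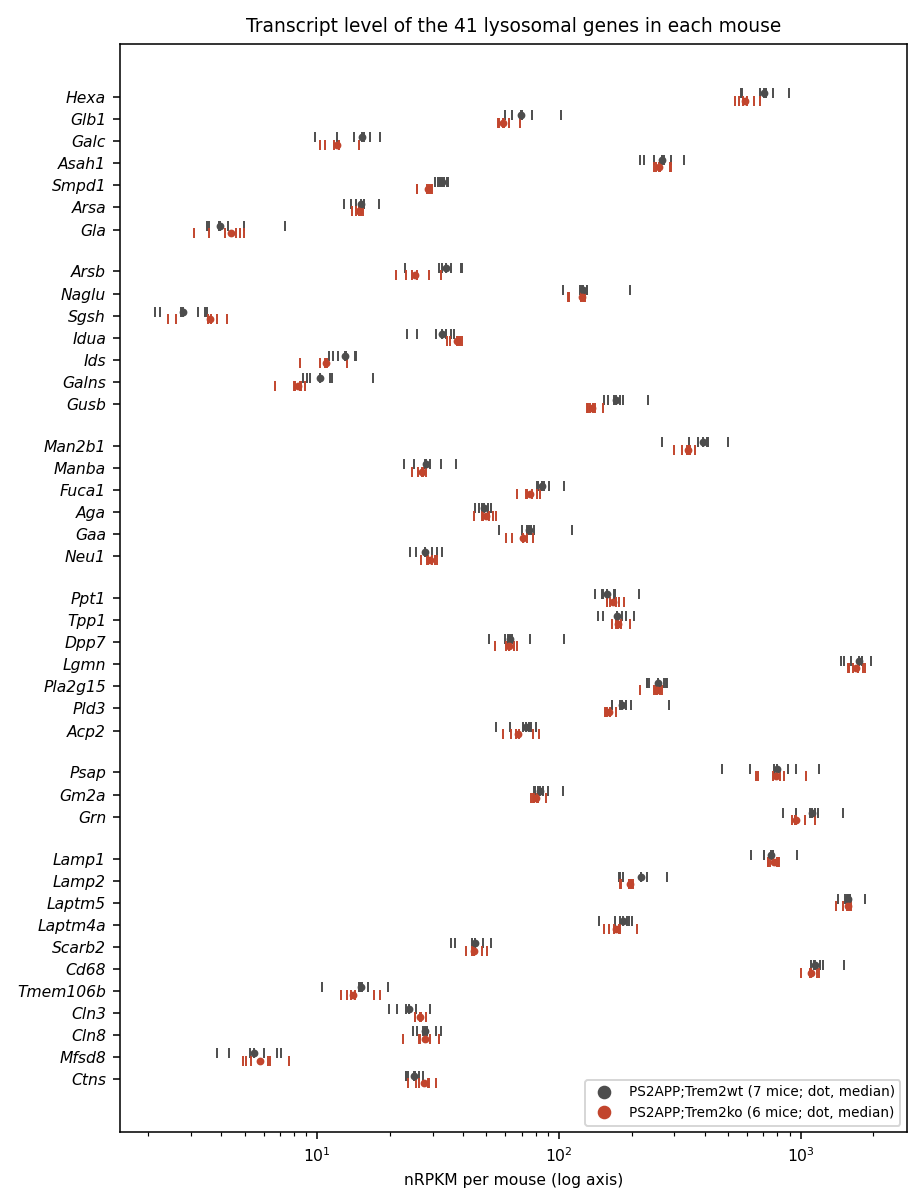
nRPKM of each of the 41 genes in every mouse (ticks) on a log axis, with the median of each genotype as a dot (grey, 7 PS2APP;Trem2wt; red, 6 PS2APP;Trem2ko), grouped by role. The medians of the genotypes lie close together at every level from Sgsh (2.79 and 3.59) to Lgmn (1741 and 1692).

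Expression was compared between genotypes with edgeR's quasi-likelihood test on the counts, with p-values adjusted over the 17086 genes tested. All 41 genes passed the expression filter. At or below an adjusted p of 0.05, Gusb was lower in PS2APP;Trem2ko microglia and none of the 41 was higher, whereas 1.53% of all genes tested were lower and 0.503% higher. At or below an unadjusted p of 0.05 9 of the 41 were lower (Gusb, Smpd1, Galns, Arsb, Fuca1, Ids, Glb1, Pld3 and Hexa) and 1, Idua, was higher, against 7.56% of all genes lower and 7.29% higher. Leaving out each mouse in turn, 8 to 12 of the 41 were lower and 0 to 2 higher at this unadjusted threshold. Over all genes tested in those fits, 6.6% to 8.1% were lower and 6.0% to 7.7% higher. TMM-scaled counts did not overlap between genotypes in 2 of the 41 genes, Gusb and Smpd1, both lower in PS2APP;Trem2ko, while 1.22% of all genes were lower and 0.421% higher without overlap. The log2 fold change (PS2APP;Trem2ko minus PS2APP;Trem2wt) was negative for 28 of the 41 genes and positive for 13, and 49.3% of all genes tested were negative. Its median was -0.05 over the 41 genes and 0.00 over all genes tested.

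Gene by gene, the size of any difference was bounded closely, by intervals that make no allowance for 41 genes being read together. The 95% confidence interval of the fold change lay within 2-fold in both directions for all 41 genes, and within 1.5-fold for 39, the exceptions being Arsb and Galns. Over the 41 genes the intervals ran from 0.600-fold to 1.48-fold. Standard errors of the log2 fold changes were between 0.06 and 0.18 with a median of 0.09, where the median over all genes tested was 0.15. Thus for most of the 41 genes a difference was not detected, and a 2-fold difference in either direction lay outside the interval.

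**Figure D3:**
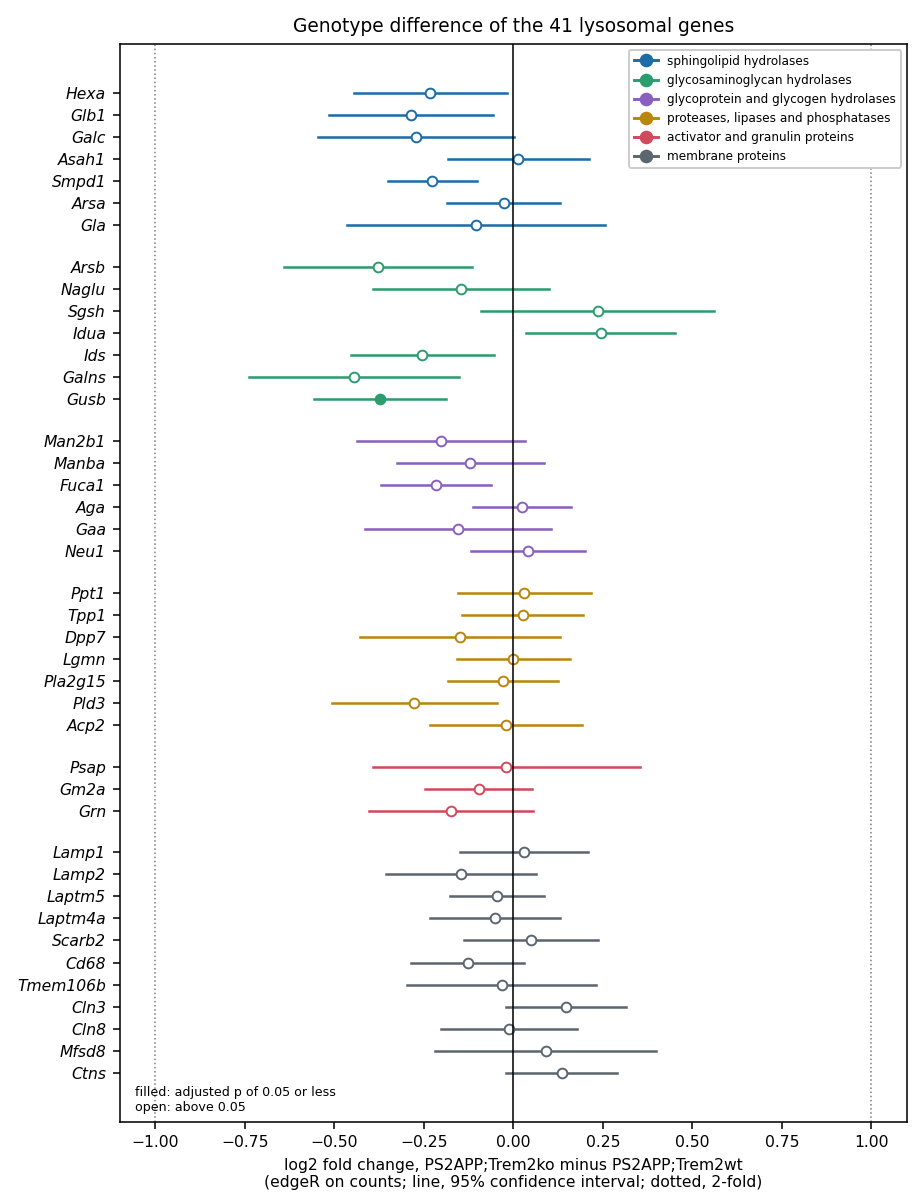
Log2 fold change of each of the 41 genes (PS2APP;Trem2ko minus PS2APP;Trem2wt; circles, filled where the adjusted p is 0.05 or less) with its 95% confidence interval, coloured by role. Gusb, at -0.37, is the filled circle, no interval reaches the dotted 2-fold lines, and Sgsh (0.24) and Idua (0.24) have the highest values.

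The sphingolipid hydrolases remove sugars, sulfate, phosphocholine and fatty acids from membrane lipids that phagocytes take up, myelin among them. None of the 7 passed the test, 6 had negative log2 fold changes, and the median was -0.23. Smpd1 encodes acid sphingomyelinase, which turns sphingomyelin into ceramide (chromosome 7, 105554360 to 105558389). Its nRPKM was lowest at 30.8, median 32.8 and highest 34.7 in PS2APP;Trem2wt mice and lowest at 25.9, median 28.7 and highest 29.8 in PS2APP;Trem2ko mice. All 6 PS2APP;Trem2ko mice therefore lay below all 7 PS2APP;Trem2wt mice, in a gene whose levels were tightly grouped within each genotype. The means were 32.8 ± 1.49 (SD, n = 7) and 28.1 ± 1.74 (SD, n = 6), with a log2 fold change of -0.23 (SE 0.06) and an adjusted p of 0.0627 from edgeR. The adjusted p was 0.0478 with voom+limma, the tool the study used, and 0.00234 with DESeq2. Smpd1 passed in 4 of the 9 other settings, with adjusted p-values of up to 0.174. It passed in 0 of the 13 fits with a mouse left out, where edgeR's adjusted p was between 0.0588 and 0.143.

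Glb1, the β-galactosidase that acts on gangliosides, had a mean nRPKM of 73.2 ± 13.9 (SD, n = 7) in PS2APP;Trem2wt mice and 60.1 ± 4.87 (SD, n = 6) in those lacking Trem2, with a log2 fold change of -0.29 (SE 0.11). Hexa, a subunit of the β-hexosaminidase of the same pathway, averaged 701 ± 114 (SD, n = 7) and 598 ± 55.1 (SD, n = 6), with a log2 fold change of -0.23 (SE 0.10). Galc removes galactose from the galactosylceramide of myelin. It averaged 14.5 ± 2.82 (SD, n = 7) and 12.05 ± 1.62 (SD, n = 6). The genotypes overlapped for each of these 3 genes, and the adjusted p-values from edgeR were 0.209 for Glb1, 0.287 for Hexa and 0.339 for Galc. The difference was smaller for Asah1, the acid ceramidase (log2 fold change 0.01, SE 0.09), and for Arsa, the sulfatase of sulfatide (-0.03, SE 0.07). Gla, the α-galactosidase of globotriaosylceramide (chromosome X, 134588149 to 134601125), was among the lowest of the 41 genes. Its nRPKM was lowest at 3.50, median 3.94 and highest 7.33 in PS2APP;Trem2wt mice and lowest at 3.09, median 4.37 and highest 4.97 in PS2APP;Trem2ko mice. The genotypes overlapped, and the log2 fold change of -0.10 (SE 0.17) became 0.06 without PS2APP;Trem2wt replicate 3, the mouse with the highest value.

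The glycosaminoglycan hydrolases remove sulfate groups and sugars one after another from heparan, dermatan, keratan and chondroitin sulfate. Of the 7 genes 1 was lower and none higher at or below an adjusted p of 0.05, 5 had negative log2 fold changes, and the median was -0.25. Gusb encodes β-glucuronidase, which removes terminal glucuronic acid (chromosome 5, 129989011 to 130003049). Its nRPKM was lowest at 153, median 171 and highest 233 in PS2APP;Trem2wt mice and lowest at 131, median 137 and highest 152 in PS2APP;Trem2ko mice. All PS2APP;Trem2ko mice lay below all PS2APP;Trem2wt mice, the nearest pair being at 153 and 152, and PS2APP;Trem2wt replicate 3 stood above the rest. The mean fell from 178 ± 26.2 (SD, n = 7) to 138 ± 7.88 (SD, n = 6), and the log2 fold change was -0.37 (SE 0.09, edgeR's adjusted p = 0.0354). Without PS2APP;Trem2wt replicate 3 it was -0.30, with an adjusted p of 0.0227.

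The call for Gusb changed with the mice left out. It was kept in 4 of the 13 fits with a mouse left out, and the log2 fold change stayed between -0.41 and -0.30 in all 13. Adjusted p-values from edgeR were 0.0537, 0.0575, 0.0564 and 0.0539 without PS2APP;Trem2wt replicates 1, 5, 6 and 7. They were 0.0603, 0.0785, 0.0645, 0.0670 and 0.0829 without PS2APP;Trem2ko replicates 2, 3, 4, 5 and 6.

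The sulfatases Galns, Arsb and Ids also had negative log2 fold changes, none of which passed the test. Galns (chromosome 8, 122578242 to 122611463), which acts on keratan and chondroitin sulfate, had an nRPKM that was lowest at 8.69, median 10.3 and highest 16.97 in PS2APP;Trem2wt mice and lowest at 6.69, median 8.29 and highest 8.89 in PS2APP;Trem2ko mice. The groups overlapped slightly, since a single PS2APP;Trem2ko mouse exceeded the lowest PS2APP;Trem2wt mouse. The log2 fold change was -0.44 (SE 0.14, edgeR's adjusted p = 0.123), the largest in size among the 41 genes, and -0.31 without PS2APP;Trem2wt replicate 3. Arsb (chromosome 13, 93771630 to 93943016), which acts on dermatan and chondroitin sulfate, was lowest at 23.1, median 34.2 and highest 39.7 in PS2APP;Trem2wt mice and lowest at 21.1, median 25.2 and highest 32.5 in PS2APP;Trem2ko mice. PS2APP;Trem2wt replicate 1 lay among the PS2APP;Trem2ko mice, and the highest PS2APP;Trem2ko mouse lay just above the lowest of the other PS2APP;Trem2wt mice. For Arsb the log2 fold change was -0.38 (SE 0.12, edgeR's adjusted p = 0.148), and without PS2APP;Trem2wt replicate 1 it was -0.45, with an adjusted p of 0.0333. Ids, the iduronate sulfatase (chromosome X, 70343069 to 70365084), was lowest at 11.1, median 13.04 and highest 14.4 in PS2APP;Trem2wt mice and lowest at 8.49, median 10.8 and highest 13.3 in PS2APP;Trem2ko mice. These groups overlapped, with a log2 fold change of -0.25 (SE 0.09, edgeR's adjusted p = 0.202).

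Of the other glycosaminoglycan hydrolases, Idua and Sgsh had positive log2 fold changes and Naglu a negative one. Idua, the α-iduronidase of heparan and dermatan sulfate, averaged 31.5 ± 5.004 nRPKM (SD, n = 7) in PS2APP;Trem2wt mice and 37.3 ± 2.07 (SD, n = 6) in those lacking Trem2. The log2 fold change was 0.24 (SE 0.10), with p-values from edgeR of 0.0251 unadjusted and 0.247 adjusted. Sgsh, the sulfamidase of heparan sulfate (chromosome 11, 119343425 to 119355536), had the lowest level of the 41 genes. Its nRPKM was lowest at 2.14, median 2.79 and highest 3.48 in PS2APP;Trem2wt mice and lowest at 2.42, median 3.59 and highest 4.21 in PS2APP;Trem2ko mice. The groups overlapped, with a log2 fold change of 0.24 (SE 0.15, edgeR's adjusted p = 0.510). Naglu, the glucosaminidase of heparan sulfate, averaged 133 ± 29.4 (SD, n = 7) and 121 ± 8.65 (SD, n = 6), and its log2 fold change of -0.15 (SE 0.12) became -0.03 without PS2APP;Trem2wt replicate 3.

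**Figure D4:**
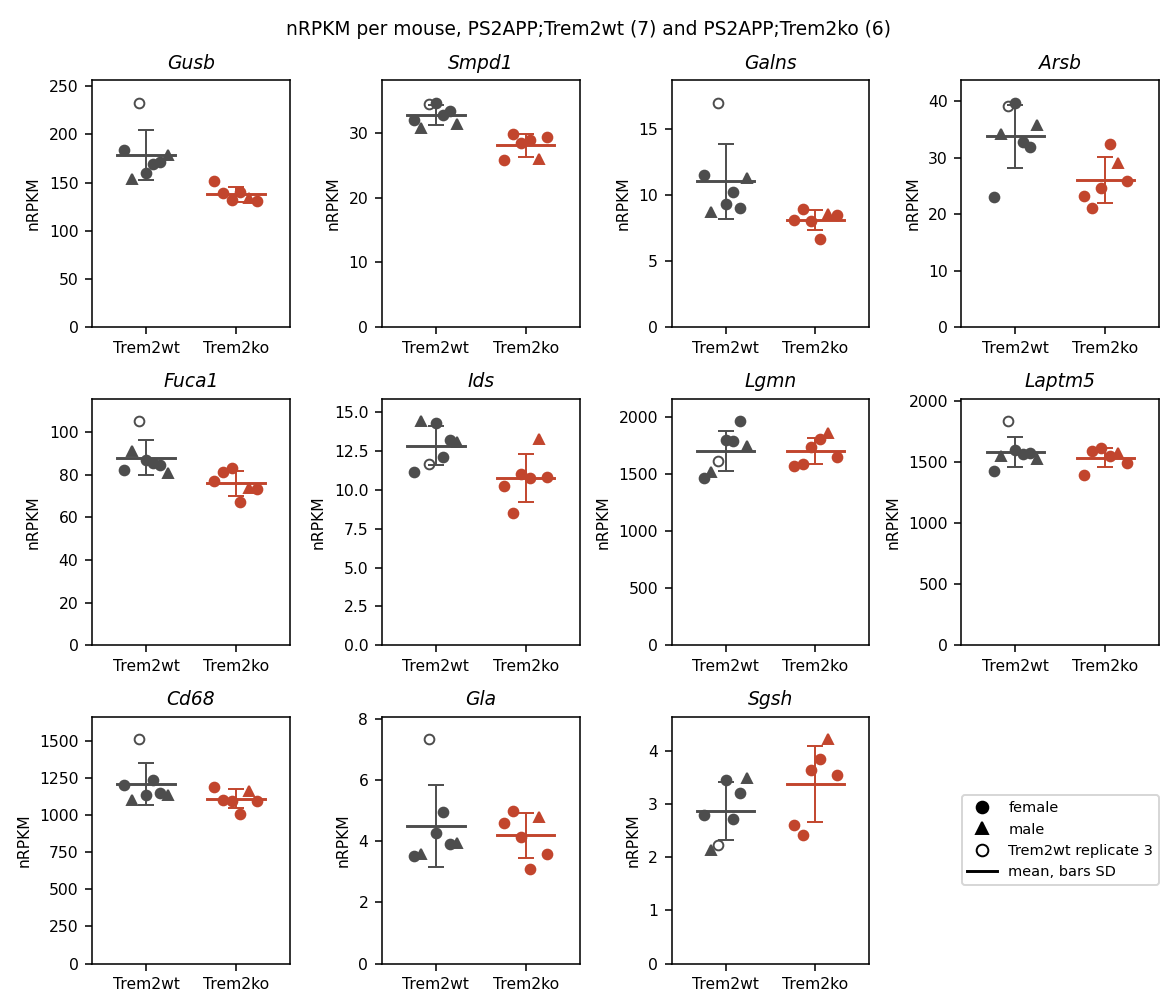
nRPKM in each mouse of the 11 genes given with values per mouse, with the mean (line) and SD (bars) of each genotype, circles for females, triangles for males and an open circle for PS2APP;Trem2wt replicate 3. The genotypes do not overlap for Gusb (lowest PS2APP;Trem2wt mouse 153, highest PS2APP;Trem2ko mouse 152) and Smpd1 (30.8 and 29.8) and overlap for the other 9.

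The glycoprotein and glycogen hydrolases trim the sugar chains of glycoproteins and degrade glycogen. None of the 6 passed the test, 4 had negative log2 fold changes, and the median was -0.14. Fuca1, the α-fucosidase (chromosome 4, 135920735 to 135940311), had an nRPKM that was lowest at 80.8, median 85.4 and highest 105 in PS2APP;Trem2wt mice and lowest at 67.2, median 75.5 and highest 83.1 in PS2APP;Trem2ko mice. The groups overlapped at the edge, with a log2 fold change of -0.22 (SE 0.07, edgeR's adjusted p = 0.159). The α-mannosidase Man2b1 had a log2 fold change of -0.20 (SE 0.11), the acid α-glucosidase Gaa, which degrades glycogen, -0.16 (SE 0.12), and the β-mannosidase Manba -0.12 (SE 0.10). The values were 0.02 (SE 0.06) for Aga, which cuts the bond between asparagine and the sugar chain, and 0.04 (SE 0.07) for the sialidase Neu1. Levels in this group ran from a mean nRPKM of 28.0 for Manba to 363 for Man2b1.

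The proteases, lipases and phosphatases comprised 7 genes, of which none passed the test, with a median log2 fold change of -0.02. Lgmn, which encodes legumain, an endopeptidase that cuts after asparagine and matures cathepsins (chromosome 12, 102394084 to 102439813), had the highest level of the 41 genes. Its nRPKM was lowest at 1463, median 1741 and highest 1961 in PS2APP;Trem2wt mice and lowest at 1568, median 1692 and highest 1852 in PS2APP;Trem2ko mice. All PS2APP;Trem2ko mice lay within the range of the PS2APP;Trem2wt mice. The log2 fold change was 0.00 (SE 0.07), with a 95% interval from -0.16 to 0.16 on the log2 scale. Pld3, a nuclease for single-stranded DNA and RNA, averaged 195 ± 41.2 (SD, n = 7) in PS2APP;Trem2wt mice and 161 ± 5.78 (SD, n = 6) in those lacking Trem2, with a log2 fold change of -0.28 (SE 0.11, edgeR's adjusted p = 0.230). Without PS2APP;Trem2wt replicate 3, at 284 the highest mouse, it was -0.16. Log2 fold changes were 0.03 for Ppt1, which removes palmitate from proteins, and 0.03 for the tripeptidyl peptidase Tpp1. Those of the dipeptidyl peptidase Dpp7, the phospholipase Pla2g15 and the acid phosphatase Acp2 were -0.15, -0.03 and -0.02.

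The activator and granulin proteins had negative log2 fold changes in 3 of 3 genes, none of which passed the test. Psap encodes the precursor of the saposins, which lift sphingolipids towards their hydrolases. It averaged 814 ± 232 nRPKM (SD, n = 7) in PS2APP;Trem2wt mice and 802 ± 148 (SD, n = 6) in those lacking Trem2. The log2 fold change of Psap was -0.02, and its SE of 0.18 was the largest of the 41 genes. Without PS2APP;Trem2wt replicate 3 the log2 fold change was 0.09. Grn, which encodes progranulin, a regulator of lysosomal enzymes, averaged 1119 ± 206 (SD, n = 7) and 993 ± 83.3 (SD, n = 6), with a log2 fold change of -0.17 (SE 0.11). Gm2a encodes the activator of ganglioside breakdown by β-hexosaminidase and had a log2 fold change of -0.10 (SE 0.07).

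Of the 11 membrane proteins none passed the test at the adjusted or the unadjusted threshold, 6 had negative and 5 positive log2 fold changes, and the median was -0.01. Cd68, a heavily glycosylated protein of macrophage lysosomes that is widely used as a marker of phagocytic microglia (chromosome 11, 69664213 to 69666153), had an nRPKM that was lowest at 1098, median 1148 and highest 1509 in PS2APP;Trem2wt mice and lowest at 1007, median 1098 and highest 1189 in PS2APP;Trem2ko mice. The groups overlapped, and PS2APP;Trem2wt replicate 3 stood above the other 12 mice. The means were 1209 ± 140.2 (SD, n = 7) and 1108 ± 63.6 (SD, n = 6), with a log2 fold change of -0.13 (SE 0.07, edgeR's adjusted p = 0.451), which was -0.07 without that mouse. Laptm5, a transmembrane protein of blood cell lysosomes (chromosome 4, 130913125 to 130936141), was lowest at 1432, median 1569.6 and highest 1840.05 in PS2APP;Trem2wt mice and lowest at 1400.3, median 1562 and highest 1617.5 in PS2APP;Trem2ko mice. The groups overlapped, with a log2 fold change of -0.05 (SE 0.06, edgeR's adjusted p = 0.785).

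Lamp1 and Lamp2, the main glycoproteins of the limiting membrane, had log2 fold changes of 0.03 (SE 0.08) and -0.15 (SE 0.10). The values were -0.05 for Laptm4a, a relative of Laptm5, and 0.05 for Scarb2, the receptor that brings glucocerebrosidase to lysosomes. Cln3 and the cystine exporter Ctns had the highest values of the group, 0.15 (SE 0.08) and 0.13 (SE 0.07), and edgeR's adjusted p-values were 0.408 and 0.415. The transporter-like Mfsd8 had 0.09 (SE 0.15), Tmem106b, which influences lysosome size and acidity, -0.03 (SE 0.12), and Cln8, a protein of the endoplasmic reticulum that helps lysosomal enzymes leave it, -0.01 (SE 0.09). For the 10 genes whose promoter windows hold the E-box letters shown above, 6 log2 fold changes were negative with a median of -0.07, and for the 27 genes whose windows do not, 20 were negative with a median of -0.10.

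Many of the 41 genes were high or low in the same PS2APP;Trem2wt mice. PS2APP;Trem2wt replicate 3, a female with 79883820 counts, had the highest nRPKM of all 13 mice in 27 of the 41 genes (65.9%), whereas it was highest in 11.1% of all genes tested. Its median deviation from the gene mean was 0.33 on the log2 scale over the 41 genes and 0.01 over all genes tested. By role group this deviation ran from 0.22 in the proteases, lipases and phosphatases through 0.47 in the sphingolipid hydrolases to 0.51 in the activator and granulin proteins. PS2APP;Trem2wt replicate 1 had the lowest nRPKM in 15 of the 41 genes (36.6%) and in 10.2% of all genes tested, with a median deviation of -0.18. The median deviations of the other 11 mice were between -0.09 and 0.08. On TMM-scaled counts replicate 3 was again highest in 27 genes and replicate 1 lowest in 14.

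The spread between mice was larger in PS2APP;Trem2wt than in PS2APP;Trem2ko for 34 of the 41 genes (82.9%), against 52.4% of all genes tested, with a median SD of log2(nRPKM) of 0.196 and 0.109. Without PS2APP;Trem2wt replicate 3 this held for 30 genes (73.2%), against 50.2% of all genes. In that mouse the summed marker levels were 8761 for microglia, 28.9 for border macrophages, 43.5 for neutrophils and 10.7 for monocytes, within the range of the other PS2APP;Trem2wt mice. Single microglial markers were not all within it. This mouse was the lowest of all 13 for P2ry12 (1608), Tmem119 (1163) and Sall1 (60.2). It was the highest of all 13 for Fcrls (1519) and Csf1r (2324). Its Cx3cr1 and Siglech levels lay within the range. Its sums for lymphocytes (3.31), astrocytes (68.1) and oligodendrocytes (38.7) were the highest of that genotype, as was its Trem2 level of 1244. The part of these markers in the deviation was not tested. Without this mouse the median log2 fold change of the 41 genes was -0.03, 26 were negative, and 8 were lower at or below an unadjusted p of 0.05 (19.5%, against 6.98% of all genes tested in that fit). Without PS2APP;Trem2wt replicate 1 the median was -0.11, 33 were negative and 12 were lower (29.3%, against 7.81%).

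**Figure D5:**
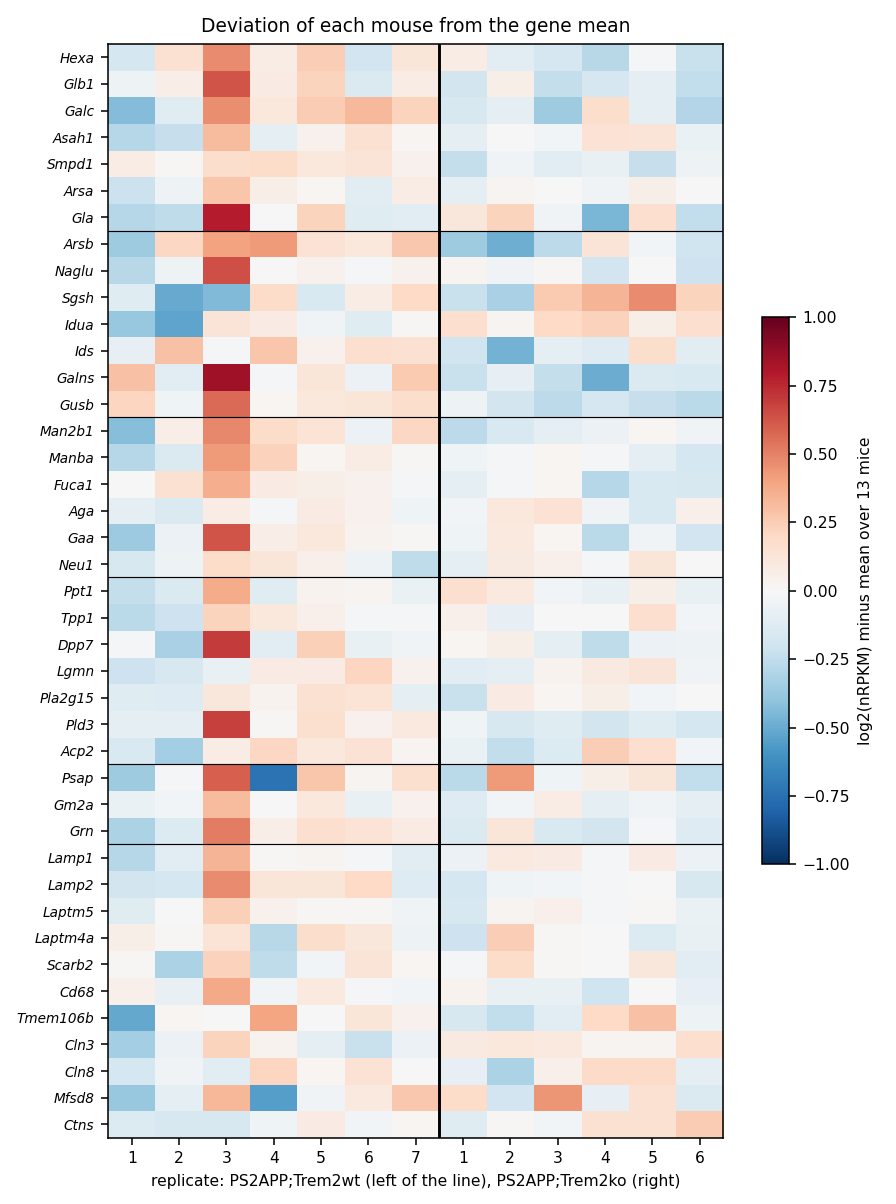
Log2(nRPKM) of each of the 41 genes in each mouse minus the gene's mean over the 13 mice (red, above; blue, below; colour scale from -1 to 1), with role groups separated by thin lines and genotypes by the thick line. PS2APP;Trem2wt replicate 3 is above the mean in 35 of the 41 genes and replicate 1 in 7.

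In females alone, 5 against 5 mice, 35 of the 41 log2 fold changes were negative with a median of -0.11, and none of the 41 genes passed the test with edgeR, while 9 were lower at or below an unadjusted p of 0.05. Over all genes tested in that fit 49.75% were negative and 7.16% lower at the unadjusted threshold. With sex as a covariate in all 13 mice, Smpd1 (adjusted p = 0.0406 from edgeR) and Gusb passed. The genotype difference did not depend detectably on sex in any of the 41 genes (edgeR interaction term, smallest adjusted p = 0.720, and 0 genes at or below an unadjusted p of 0.05), in a design with 1 male PS2APP;Trem2ko mouse.

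Some of the 41 genes lie close to other genes, and the sources used here do not state whether counting used the strand. A gene started within 1 kb on the other strand for 11 of them, and annotated exons overlapped those of another gene for 13, giving 23 neighbours, of which 19 could be tested and 2 passed the test. Slc26a11, a sulfate transporter, starts 21 bases from Sgsh on the other strand, with no exon overlap. It rose from 1.49 ± 0.139 nRPKM (SD, n = 7) to 3.10 ± 0.977 (SD, n = 6), with an adjusted p of 0.00403 from edgeR and no overlap between genotypes, whereas Sgsh did not pass the test. Cap1, an actin regulator, shares 129 exonic bases with Ppt1. It fell from 27.0 ± 1.36 (SD, n = 7) to 21.1 ± 2.58 (SD, n = 6), also without overlap, with a log2 fold change of -0.36 (SE 0.08, edgeR's adjusted p = 0.0202), whereas Ppt1 had 0.03 (SE 0.09, adjusted p = 0.916). The share of 50-base transcript words found also in another gene was above 5% for 8 genes, with 38.5% for Arsb, 18.5% for Sgsh and 15.8% for Arsa. The partner of Arsb, Gm26527, was listed at 0 in every mouse. The other neighbours did not pass or could not be tested. By start they were Tmem202 (Hexa), Gm47439 (Galc), Hnrnph2 (Gla), Gm47210 (Arsb), Trappc2l (Galns), 2310022A10Rik (Pld3), Nr1h3 and Gm13783 (Acp2), Apobr (Cln3), Gm2011 and Abhd18 (Mfsd8) and Shpk (Ctns). By exon overlap alone they were Tmppe (Glb1), C230037L18Rik (Arsa), Gm26527 (Arsb), Card14 (Sgsh), Dgkq and Slc26a1 (Idua), Ddb2 (Acp2), Fam171a2 (Grn) and Grtp1 (Lamp1). No word shared with another gene was found for Gusb, and the share was 0.0888% for Smpd1.

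The other lysosomal genes, taken from lists of cathepsins and related proteases, V-ATPase subunits, further enzymes and carriers, enzyme targeting and lysosomal regulators, numbered 80, of which 78 were tested. Of these 2 were lower and 1 higher at or below an adjusted p of 0.05, where all genes tested had shares of 1.53% lower and 0.503% higher, and the median log2 fold change was -0.04. With so few genes past the threshold nothing is read from these counts about the lists. Ctse encodes cathepsin E, an aspartic protease of endosomes. It was lowest at 6.44, median 7.34 and highest 21.8 nRPKM in PS2APP;Trem2wt mice and lowest at 1.52, median 3.14 and highest 4.80 in PS2APP;Trem2ko mice, so the genotypes did not overlap. Ctse had a log2 fold change of -1.60 (SE 0.33, edgeR's adjusted p = 0.0183). Atp6v0d2, an alternative subunit of the membrane sector of the V-ATPase proton pump, averaged 5.40 ± 2.32 nRPKM (SD, n = 7) in PS2APP;Trem2wt mice and was lowest at 0.00437, median 0.114 and highest 0.478 in PS2APP;Trem2ko mice, of which the lowest had 1 count, under the detection limit of 3 counts. PS2APP;Trem2ko replicate 4 was nearly as low, at 0.00555 nRPKM, and was also under this limit. The adjusted p of Atp6v0d2 from edgeR was 0.000478. The limit covers counting error only. Both genes were highest in PS2APP;Trem2wt replicate 3, at 21.8 and 10.2, and both stayed lower at or below an adjusted p of 0.05 in all 13 fits with a mouse left out.

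Flcn encodes folliculin, which acts on the Rag GTPases at the lysosome and restrains the nuclear entry of TFEB and TFE3. It was the single higher gene of the lists. Its nRPKM was lowest at 50.5, median 57.1 and highest 61.8 in PS2APP;Trem2wt mice and lowest at 67.9, median 72.5 and highest 76.4 in PS2APP;Trem2ko mice. Every PS2APP;Trem2ko mouse lay above every PS2APP;Trem2wt mouse. It was higher by 0.36 on the log2 scale (SE 0.06, edgeR's adjusted p = 0.00748), and it remained past the threshold in all 13 fits with a mouse left out. Among the cathepsins 1 of 14 tested genes was lower and none higher, among the V-ATPase subunits 1 of 18 was lower and none higher, and among the regulators 1 of 14 was higher and none lower. None of the 26 further enzymes and carriers and none of the 6 targeting genes passed in either direction.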

How the data were processed

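Sorted cells of 13 mice were analysed, 7 PS2APP;Trem2wt and 6 PS2APP;Trem2ko, grouped by the genotype labels. Replicate numbers were assigned here, in the order of the samples within each genotype. Libraries had been made with the SMART-seq v4 kit and read as single-end 50 base reads. The authors removed adapter, low-quality and rRNA reads, aligned to GRCm38 with GSNAP (named in the submitters' processing notes without a version) and deposited for each mouse the counts of reads per gene, not normalized, and nRPKM, an RPKM adjusted by a size factor. The counts as deposited were used for the main tests, and the RPKM values for levels per mouse, the search for mice far from the rest and the limma alternatives named below. Per the study's methods, mice were generally handled in pairs, a PS2APP;Trem2wt with a PS2APP;Trem2ko animal, from perfusion to sorting. The labels do not give the pairs, so no fit takes them into account.

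Counts were tested with edgeR 4.0.16 in R 4.3.3 (filterByExpr by genotype, TMM scaling, glmQLFit and glmQLFTest with no covariate), with Benjamini-Hochberg adjustment over 17086 genes, in place of the voom+limma of the study. The common biological coefficient of variation was 0.299. An SE is the log2 fold change over the root of F, and 95% intervals use the t distribution of the fit. Overlap was judged on TMM-scaled CPM. The fit was repeated with voom+limma (limma 3.58.1) and DESeq2 1.42.0, with RLE in place of TMM, with no filter or one of at least 10 counts in 6 mice, with sex added, on the females, by limma on nRPKM after adding 0.1 or 1 and taking log2, and without each mouse. A fold threshold of 2 was applied to the calls of the main fit, without a new fit. On simulated counts with known changes in 196 of 16773 genes, edgeR recovered 72.2% of 2-fold and 92.9% of 4-fold changes with 6 false calls. DESeq2 recovered 77.3% and 99.0% with 30 false calls, and voom+limma 73.2% and 92.9% with 10. The 36 pairs of mice of 1 genotype differed by at least 18.1 times sampling noise (chi-square over its degrees of freedom), so none was a library deposited again. Mice are separate animals.

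The 41 genes, the role groups and the lists were chosen with earlier results of these data known. Values per mouse are given for genes with an adjusted p of 0.05 or less, the 6 smallest p-values, genes without overlap, the 3 highest and 2 lowest levels, and Cd68. The other genes that were below the unadjusted threshold, and replicates 1 and 3, were named after their values were seen. In the lists the genes past the threshold are named, and neighbouring genes are named beside the 41. Symbols were matched for 52403 of 52636 genes. Gene coordinates are those of GENCODE gene models on GRCm38, and promoter windows are from RefSeq. Python 3.11.15 with numpy 2.4.6, pandas 2.3.3, scipy 1.17.1 and matplotlib 3.10.9 was used.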

Additional observations from a re-analysis of the deposited data

Results flagged for a closer look

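In each genotype the values per mouse of the 41 genes were examined for a mouse far from the rest by Dixon's criterion on the log2 scale, as was the median deviation of the 41 genes in each genotype, and 7 of these 84 sets held one, all of them sets of a single gene. Chance alone flags about 1 in 20 sets. In 5 of the 7 the mouse was PS2APP;Trem2wt replicate 3, with the highest nRPKM of its genotype. It had 197 for Naglu, where the other PS2APP;Trem2wt mice ranged from 104 to 130.03, 16.97 for Galns (others 8.69 to 11.5), 233 for Gusb (others 153 to 183), 284 for Pld3 (others 165 to 198) and 1509 for Cd68 (others 1098 to 1238). In PS2APP;Trem2wt replicate 1 Arsb was low at 23.1 (others 31.9 to 39.7), and in PS2APP;Trem2ko replicate 1 Pla2g15 was low at 215 (others 247 to 267). No gene of the 41 had a genotype difference that differed between sexes at an adjusted p of 0.05 or less.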

How the results depend on the processing

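Of the 41 genes, 1 (Gusb) was lower at or below an adjusted p of 0.05. The count was 2 with voom+limma, with sex as a covariate and with limma on log2(nRPKM + 1) (Smpd1 and Gusb each time), 4 with DESeq2 (Smpd1, Arsb, Galns and Gusb), and 0 without a filter, in females only, with limma on log2(nRPKM + 0.1) and with a fold threshold of 2. It was 0 to 1 with a mouse left out, and the gene was Arsb without PS2APP;Trem2wt replicate 1. The fold threshold was a cut on the main fit that none could pass, since the largest log2 fold change in size was -0.44 (Galns). For the other settings the cause was not tested, other than that the fit without a filter adjusted over 34617 genes and that females only left 10 mice. RLE scaling and the filter of 10 counts in 6 mice kept Gusb as the only one. The count of higher genes was 0 in every alternative. The count of list genes that were higher was 1 to 2 with a mouse left out (2 without PS2APP;Trem2wt replicate 7). The median of the 41 log2 fold changes was between -0.11 and -0.02 with a mouse left out and -0.11 in females only. The sign was the same in all 23 fits for 27 of the 41 genes, 21 negative and 6 positive. No paired analysis was possible because the labels carry no replicate numbers and do not say which mice of the 2 genotypes were processed as pairs. Over all genes, 262 were lower and 86 higher with edgeR, 325 and 111 with voom+limma and 526 and 325 with DESeq2. Each of the 41 genes had at least 359 counts in each mouse, and the number of mice limits the precision.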
